A study of Mus musculus with 12 samples.

Results

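Mir-143 and Mir-145 are a pair of microRNAs transcribed together and known as markers of mural cells, the smooth muscle cells and pericytes that wrap blood vessels. The rows of the miRNA table whose first name element is Mir-143 or Mir-145 were taken as members, all arms included. They were 4 of 513 rows, namely Mir-143_3p, Mir-143_5p*, Mir-145_5p and Mir-145_3p*, where the suffix names the arm of the hairpin and the asterisk marks the passenger arm, the strand that is usually discarded. The hippocampi of 12 male wild-type mice of the inbred strain C57BL/6J were profiled by small RNA sequencing to compare grandsons of exercised and of sedentary grandfathers. The exercised lineage (F2 of exercised mice, patrilineal design) held 6 mice and the sedentary lineage (F2 of sedentary mice) held 6 mice. The labels name exercise only for the grandfathers' generation and give no age of the grandsons. Bulk hippocampus was used, so fewer mural cells and less RNA per cell cannot be told apart.

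A microRNA is cut from a hairpin precursor, and 1 of its arms is loaded into an Argonaute protein that represses messenger RNAs matching the seed near its 5′ end. In mouse smooth muscle, the Mir-143 and Mir-145 precursors come from a shared transcript whose expression depends on serum response factor and myocardin, and both microRNAs favour the contractile state. Mir-145 is known there to repress Klf4 and Klf5, and Mir-143 to repress Elk1, a factor that competes with myocardin. The pair differ in seed and are not paralogues of each other. In the brain, mural cells sit on arterioles and capillaries next to endothelium, whose best known microRNA is Mir-126.

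In the mm10 build, the GENCODE annotation places Mir143 on chromosome 18 at 61649196 to 61649258 and Mir145a at 61647825 to 61647894, both on the minus strand, with 1301 bases between them. Neither overlaps another annotated gene, and Mir143 lies 366 bases beyond the 3′ end of the long noncoding RNA Carmn (61649625 to 61665537, minus strand). The annotation also holds Mir145b on the same chromosome at 69022199 to 69022273. The row name Mir-145 carries no paralogue number, and whether reads of Mir145b enter it is not given in the sources used here.

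Libraries held 6862623 to 10219856 reads on miRNA arms, inferred from the step between values, and all 4 member arms passed the filter on low values (a mean of at least 10, met by 474 of 513 arms). The values are normalized counts, reads divided by 1 size factor per library. Each submitter code opens with 1 of 4 stems, carried by 3 libraries each. Mice 1 to 3 of the exercised lineage carry R31 and mice 4 to 6 carry R41, and likewise S11 and S41 in the sedentary lineage. No label explains the stem. Should mice that share it be relatives, p-values that count 12 separate libraries are too small. All 13 neuronal arms of the marker lists used below were detected in every library. Nothing but the mouse numbers says how the samples were taken, and the p-values measure the spread between these libraries.

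Mir-143_3p, the guide arm of Mir-143, ranked 4 of 513 arms by its mean, a level far above the other 3 members. In the exercised lineage it ran from 224174 to 572958 normalized counts with a median of 290622, and in the sedentary lineage from 244406 to 615012 with a median of 349204. The lineages overlapped over nearly their whole range, and in each the lowest library was mouse 2 and the highest mouse 4. Its share of all normalized counts averaged 4.43% ± 1.67 for exercised-lineage mice and 4.55% ± 1.74 for sedentary-lineage mice (SD, n = 6 each). Exercised-lineage mice 4 and 6 (572958 and 565785) and sedentary-lineage mice 4 and 6 (615012 and 490186) stood above the other 8 libraries, of which the highest was at 374503.

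Mir-145_5p, the guide arm of Mir-145, was the member with the widest range. It ran from 434 to 2340 normalized counts with a median of 1384 in the exercised lineage, and from 1120 to 2192 with a median of 1362 in the sedentary lineage. Exercised-lineage mouse 1 was the lowest of the 12 libraries and exercised-lineage mouse 4 the highest, so the sedentary range lay inside the exercised one. Exercised-lineage mouse 2, at 745, was the next lowest.

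The passenger arms were far below the guide for Mir-143 and nearer to it for Mir-145. Mir-145_3p* had 301 to 516 normalized counts with a median of 376 in the exercised lineage, against 350 to 610 with a median of 433 in the sedentary lineage. Its highest library was mouse 6 in both lineages. Mir-143_5p* had 69.1 to 131 normalized counts with a median of 108 in the exercised lineage, against 78.1 to 204 with a median of 111.2 in the sedentary lineage. Mouse 4 was highest in both lineages, and sedentary-lineage mouse 4 stood above all others. No member was at 0 in any library. Reads of different arms also depend on how well each ligates to the adapters, so these levels do not give the ratio of molecules.

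**Figure D1:**
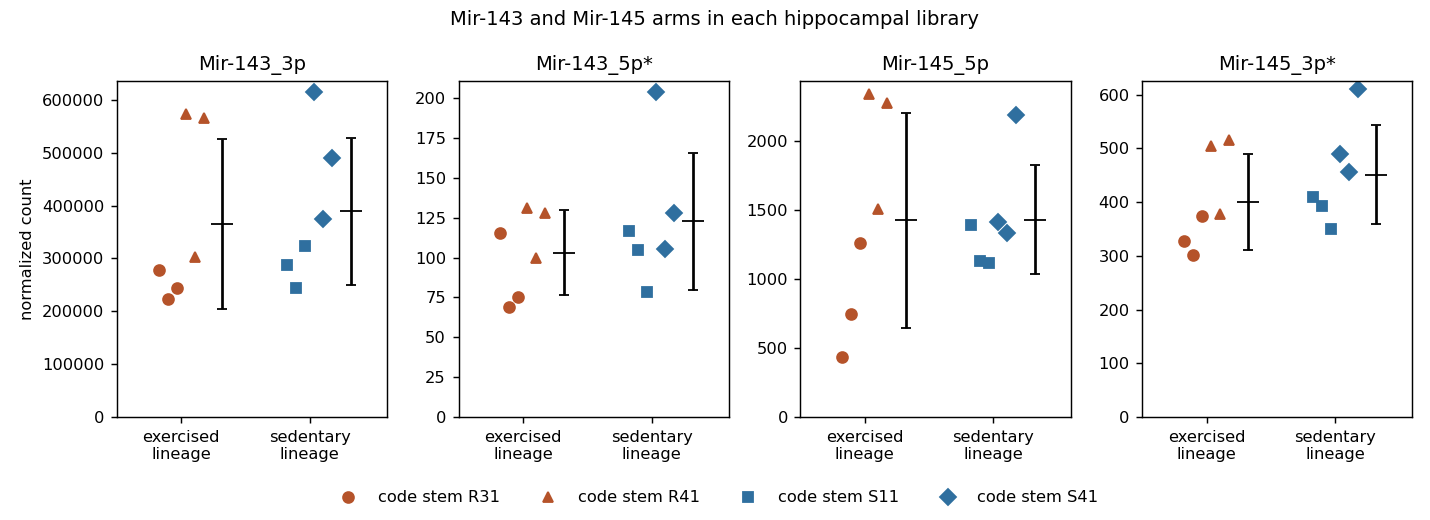
Normalized count (linear axes from 0) of the 4 member arms in each library, exercised lineage left and sedentary lineage right, with 1 point per mouse, the marker showing the code stem, and the mean ± SD beside the points (n = 6 each). The lineages overlap for every arm, and Mir-143_3p lies at 302783 or higher in the R41 and at 374503 or higher in the S41 libraries.

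No member arm met the threshold between the lineages, and neither did any other arm. Across the 474 arms, 0 were called higher and 0 lower at an adjusted p below 0.05 (limma with Benjamini-Hochberg adjustment, 0% called, 34 at an unadjusted p below 0.05). For the members, 0 of 4 were called, and the lineages overlapped for all 4, as for every tested arm (0% without overlap). Mir-143_3p averaged 364821 ± 160754 normalized counts over exercised-lineage mice and 389280 ± 139242 over sedentary-lineage mice (SD, n = 6 each). Its log2 difference, exercised minus sedentary on the log2(value + 1) scale, was -0.13 (SE 0.28, limma adjusted p = 0.908), and 4 of the 6 exercised-lineage values lay below the median of the sedentary lineage. The 95% confidence interval reached from -0.74 to 0.48, that is from 0.600-fold to 1.39-fold.

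The other members also had log2 differences below 0, each with an interval that spans 0. Mir-145_5p averaged 1427 ± 780 normalized counts in exercised-lineage mice against 1430 ± 394 in sedentary-lineage mice, a difference of -0.19 (SE 0.36, interval -0.98 to 0.60, adjusted p = 0.896). Mir-145_3p* averaged 400.4 ± 90.05 in exercised-lineage against 451 ± 91.6 in sedentary-lineage mice, a difference of -0.18 (SE 0.16, interval -0.53 to 0.17, adjusted p = 0.669). Mir-143_5p* averaged 103 ± 26.4 in exercised-lineage against 123 ± 43.1 in sedentary-lineage mice, a difference of -0.23 (SE 0.23, interval -0.72 to 0.26, adjusted p = 0.685). The interval reached a median of 0.34 to each side over all tested arms, so the lineage difference of Mir-143_3p and Mir-145_5p was measured less closely than that of a typical arm. Over all 474 arms the median difference was -0.00, with 238 arms below 0. Without exercised-lineage mouse 1 the difference of Mir-145_5p was 0.11, and without sedentary-lineage mouse 4 that of Mir-143_3p was 0.017. Without the R31 libraries the differences were 0.32 for Mir-143_3p and 0.53 for Mir-145_5p, and without the R41 libraries -0.58 and -0.91 (no arm called in any of these fits).

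The spread of the guide arms among libraries was far above counting error. The coefficient of variation of Mir-143_3p over the 12 libraries was 38.2%, where counting error alone gives 0.170% at 236253 to 675594 reads. Among 16 other arms with a mean within 4-fold of its own, the median coefficient was 15.1% and none was above that of Mir-143_3p. For Mir-145_5p it was 41.2%, with 2.84% from counting, and 8 of 141 arms of like level were more variable. The passenger arms had 31.5% for Mir-143_5p*, where counting alone gives 9.70%, and 21.3% for Mir-145_3p*, where counting alone gives 4.92%. The median over all tested arms was 19.96%, so Mir-145_3p* varied about as much as a typical arm. The highest library exceeded the lowest 2.74-fold for Mir-143_3p, 5.39-fold for Mir-145_5p (3.14-fold without exercised-lineage mouse 1), 2.95-fold for Mir-143_5p* (1.90-fold without sedentary-lineage mouse 4) and 2.02-fold for Mir-145_3p*. None of the arms followed sequencing depth, with r between -0.15 and 0.21 to log2 reads (permutation test, adjusted p at least 0.869 over 4 relations).

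In size-factor normalized counts, Mir-143_3p was higher in the R41 than the R31 and in the S41 than the S11 libraries, and the separation of the stems depended on the scaling. Mir-143_3p stood at 302783, 565785 and 572958 normalized counts in the R41 libraries, against 224174, 244765 and 278461 in the R31 libraries, a 1.93-fold higher mean. It stood at 374503, 490186 and 615012 in the S41 libraries, against 244406, 287670 and 323905 in the S11 libraries, a 1.73-fold higher mean. The sets did not overlap in either lineage in these values. In CPM (values scaled to the library total), the S41 and S11 sets stayed apart, but R41 libraries had 35136 to 68000 against 28764 to 43116 in R31 libraries, an overlap. Under upper-quartile scaling R41 and R31 also overlapped.

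In normalized counts Mir-145_3p* had the same order, with 379 to 516 normalized counts in R41 and 301 to 374 in R31 libraries, and with 455 to 610 in S41 and 350 to 410 in S11 libraries. Mir-145_5p was separated in the exercised lineage, at 1510 to 2340 in R41 against 434 to 1258 in R31 libraries. In the sedentary lineage it overlapped, at 1333 to 2192 in S41 against 1120 to 1392 in S11 libraries. Mir-143_5p* overlapped in both. In normalized counts, 3 of 4 members were higher in R41 than R31 without overlap, where 40 of 474 tested arms were (8.44%), and 2 of 4 were higher in S41 than S11, where 17 of 474 arms were (3.59%). In the other direction 0 of 4 members were lower in R41 (8.65% of tested arms) and 0 of 4 lower in S41 (1.69%). In these values 3 of 474 arms (0.633%) were separated upward in both lineages, namely Mir-143_3p, Mir-145_3p* and Mir-126 3p, and 0 were separated downward in both. Scaled by library totals, 1 of 4 members (Mir-145_5p) was separated between R41 and R31, where 9 of 474 arms were, and 3 of 4 between S41 and S11, where 27 of 474 were. Mir-145_5p was then the 1 arm separated upward in both lineages. Under upper-quartile scaling 2 of 474 arms (0.422%) were, namely Mir-145_3p* and Mir-126 3p. For Mir-145_3p* the lowest R41 value (383.03) then lay barely above the highest R31 value (382.797), a gap below counting error. These counts were made after the values were seen and describe 12 libraries. The stems lie within the lineages, and what they stand for was not tested.

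Of the 6 pairs of member arms, 5 had a Pearson correlation with an adjusted p below 0.05 over the 12 libraries. By Pearson's r the closest pair was Mir-143_3p with the passenger arm Mir-145_3p*, and by Spearman's rho the arms of Mir-145. On the log2(value + 1) scale, Pearson's r of this pair was 0.84 and Spearman's rho 0.78 (n = 12, permutation test with 100000 resamples, two-sided, adjusted p = 0.00196 and 0.00630 over 6 pairs). None of the 470 other tested arms had a higher r with either of the 2, but Mir-3081_3p came close with Mir-143_3p (0.837 against 0.8435). The highest of them with Mir-145_3p* was Mir-126 3p at 0.764. For Mir-143_3p with Mir-145_3p*, leaving out 1 library at a time gave r from 0.81 to 0.87. Without the 2 libraries farthest from the median of Mir-143_3p, mouse 4 of each lineage, r was 0.85 (n = 10).

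The arms of each hairpin also went together. Mir-145_5p and Mir-145_3p* had r = 0.83 and rho = 0.87 (permutation test, adjusted p = 0.00196 and 0.00216), and 0.82 without the 2 libraries farthest from the median, exercised-lineage mice 1 and 2. Mir-143_3p and Mir-143_5p* had r = 0.79 and rho = 0.81 (adjusted p = 0.00196 and 0.00436), and 0.67 without mouse 4 of each lineage. A gene's arms are cut from the same precursor, so such a pair is not a comparison of separate precursors. Since the Mir-143 and Mir-145 precursors are known from a shared transcript, pairs across the hairpins are not separate transcripts either.

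The guide arms of the pair, Mir-143_3p and Mir-145_5p, had r = 0.68 and rho = 0.76 (permutation test, adjusted p = 0.0107 and 0.00785), with r = 0.69 without mouse 4 of each lineage and 0.79 without exercised-lineage mouse 1. Of the 470 other arms, 4 had a higher r with Mir-143_3p and 39 a higher r with Mir-145_5p. The median r of those arms was 0.05 with Mir-143_3p and -0.03 with Mir-145_5p. Mir-143_5p* and Mir-145_3p* had r = 0.69 (rho 0.81, adjusted p = 0.0148 and 0.00436). The pair with the lowest r was Mir-143_5p* with Mir-145_5p, at 0.37 (rho 0.67, adjusted p = 0.221 and 0.0197), and at 0.61 without exercised-lineage mouse 1.

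Within each lineage all 6 pairs had a positive r. For Mir-143_3p with Mir-145_5p it was 0.75 among exercised-lineage and 0.60 among sedentary-lineage mice (n = 6 each, exact permutation p = 0.0528 and 0.261). For Mir-143_3p with Mir-145_3p* it was 0.95 and 0.72 (exact p = 0.0278 and 0.125), and for Mir-145_5p with Mir-145_3p* 0.88 and 0.93 (exact p = 0.0167 and 0.0139). After Benjamini-Hochberg adjustment over 6 pairs, no pair within a lineage had an adjusted p below 0.05.

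Within the code stems the r of the guide arms was lower than over all libraries. Among the R31 libraries, exercised-lineage mouse 1 was highest for Mir-143_3p (278461) and lowest for Mir-145_5p (434). The r within stems was not computed without this mouse. When each library was taken as its deviation from the mean of its stem, r was 0.21 for Mir-143_3p with Mir-145_5p (permutation p = 0.511), 0.54 for Mir-143_3p with Mir-145_3p* (p = 0.0723), 0.61 for Mir-143_3p with Mir-143_5p* (p = 0.0305) and 0.71 for Mir-145_5p with Mir-145_3p* (p = 0.00772). For Mir-143_5p* it was 0.32 with Mir-145_3p* (permutation p = 0.308) and -0.21 with Mir-145_5p (permutation p = 0.502). The permutation treated all deviations as separate values, although those within a stem cancel out, so these unadjusted p-values are too small. The r of the arms of each hairpin was higher than that of the guide arms, and the difference was not tested. Without the R41 libraries, r of the guide arms was 0.55 (n = 9, exact permutation p = 0.0888).

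**Figure D2:**
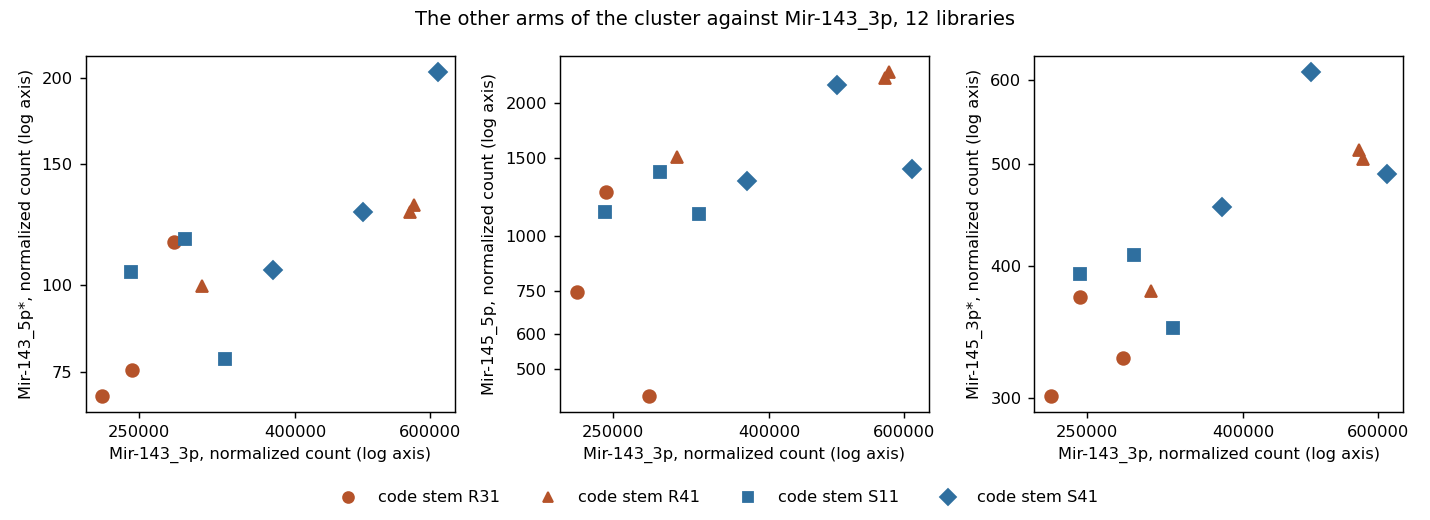
Normalized count of Mir-143_5p*, Mir-145_5p and Mir-145_3p* (log axes) against that of Mir-143_3p (log axis) in the 12 libraries, with the lineage by colour and the code stem by marker. In the middle panel exercised-lineage mouse 1 lies apart at 434 normalized counts of Mir-145_5p.

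Ratios within a library do not depend on its size factor, and none of the 4 computed differed between the lineages beyond the spread. Mir-143_3p exceeded Mir-145_5p by 195 to 642 times in the exercised lineage (median 247) and by 207 to 435 times in the sedentary lineage (median 252). The log2 ratio averaged 8.12 ± 0.63 in exercised-lineage and 8.06 ± 0.40 in sedentary-lineage mice (SD, n = 6 each, exact permutation p = 0.833, adjusted 0.978 over 4 ratios). Exercised-lineage mouse 1 was highest, and without it the lineage difference was -0.18 in place of 0.06. Mir-143_3p exceeded its own passenger arm by 2408 to 4431 times in the exercised lineage, against 2338 to 4147 times in the sedentary lineage (exact p = 0.600).

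The ratio of the arms of Mir-145 spread widely among exercised-lineage mice, of which 5 of 6 lay outside the sedentary range. Mir-145_5p exceeded Mir-145_3p* by 1.32 to 4.63 times in the exercised lineage (median 3.68), against 2.87 to 3.59 times in the sedentary lineage (median 3.06). The low end was exercised-lineage mouse 1, at 1.32, followed by mouse 2 at 2.47, while the R41 libraries had 3.99 to 4.63. The difference in log2 ratio was -0.01 (exact p = 0.978) and 0.23 without that mouse. Without all R31 libraries it was 0.47 (exact permutation p = 0.0238, unadjusted), and without all R41 libraries -0.49. Both subsets were chosen after the values were seen, and that p is the smallest that so few libraries allow. The R41 libraries lay above every sedentary-lineage library. Exercised-lineage mouse 1 also held the lowest value of 119 of the 474 tested arms (25.1%), and its Mir-145_5p was 0.312 times the median of the other 11 libraries. Of the tested arms, 1.90% were as low or lower there, relative to the median of the others.

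**Figure D3:**
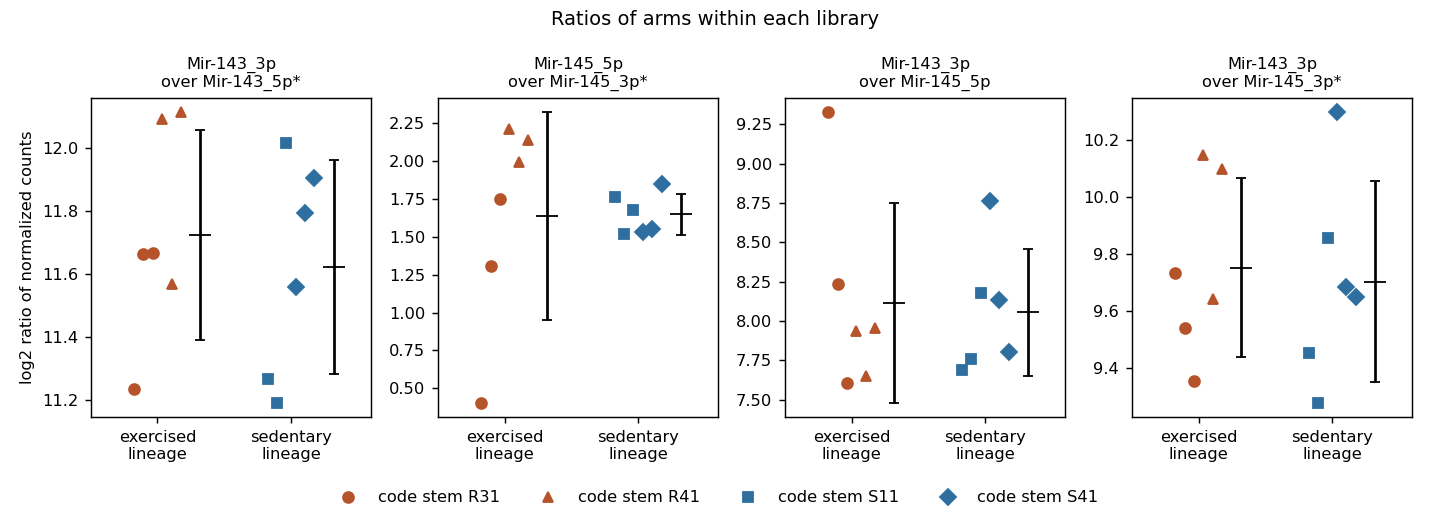
Log2 ratio of normalized counts within each library for 4 pairs of member arms, exercised lineage left and sedentary lineage right, with 1 point per mouse, the marker showing the code stem, and the mean ± SD (n = 6 each). The ratio of Mir-145_5p to Mir-145_3p* spreads more in the exercised (SD 0.69) than in the sedentary lineage (SD 0.14), with mouse 1 of the exercised lineage lowest.

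Outside the cluster, the arm whose pattern was most like it in normalized counts was Mir-126 3p, an endothelial microRNA that supports vessel integrity. It also ranked first under upper-quartile scaling, but the fourth under scaling by library totals. Arms with a mean of at least 100 (315 of them) were ranked by the smaller of their 2 Pearson correlations, with Mir-143_3p and with Mir-145_5p. The row of Mir-126 3p, which covers 3 variants, carries the passenger mark of its first variant (Mir-126-v1_3p*). The 5p arm of the same hairpin did not share the pattern, with r = 0.30 with Mir-143_3p and -0.18 with Mir-145_5p. Mature sequences from RefSeq (GRCm38.p6) are shown for 4 arms of this ranking, so that their seeds can be compared. Capitals mark the seed, bases 2 to 8. The first 3 are among the most like and the last among the least like.
Mir-126 3p: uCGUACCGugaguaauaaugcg
Mir-210_3p: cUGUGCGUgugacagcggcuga
Mir-218 5p: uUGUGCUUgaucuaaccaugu
Mir-448_3p: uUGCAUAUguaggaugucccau

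None of these genes lies on the chromosome of the cluster. Mir-126 3p is encoded on chromosome 2 (26591402 to 26591423), Mir-210_3p on chromosome 7 (141221407 to 141221428, minus strand), Mir-218 5p on chromosomes 5 (48223966 to 48223986) and 11 (35616840 to 35616860) and Mir-448_3p on chromosome X (147158281 to 147158302). The 4 seeds differ from one another.

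Mir-126 3p had 78046 to 114062 normalized counts with a median of 96661 in the exercised lineage, against 85787 to 108170 with a median of 98032 in the sedentary lineage. Its range was narrower than that of the guide arms of the cluster, and in normalized counts it was higher in R41 than R31 and in S41 than S11 libraries without overlap. In CPM, R41 and R31 libraries overlapped (11168 to 13709 against 10299 to 12084). Its r was 0.75 with Mir-143_3p (rho 0.80) and 0.87 with Mir-145_5p (rho 0.83), over 12 libraries. The smaller r stayed between 0.69 and 0.81 with any 1 library left out, and the arm ranked first in 11 of 12 such rankings and the second in the one without exercised-lineage mouse 1. With values scaled by library totals the smaller r was 0.34, below that of Mir-199-P1-v1_5p* (0.44), Mir-210_3p (0.44) and Mir-150_5p (0.37). Its r with Mir-143_3p was 0.81 among exercised-lineage and 0.63 among sedentary-lineage mice, and as deviation from the stem means it was 0.17 (0.59 with Mir-145_5p). Its lineage difference was -0.05 (SE 0.10, limma adjusted p = 0.908).

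The other 5 arms followed by this measure in normalized counts. Mir-150_5p, known from lymphocytes, had r = 0.62 and 0.73 with Mir-143_3p and Mir-145_5p. Its passenger arm Mir-150_3p*, not among the most like, had -0.34 and -0.66, at low means of 15.2 (exercised) and 14.0 (sedentary lineage) normalized counts. Mir-29-P2a_3p, of a family that represses collagen genes, had 0.58 and 0.76. Mir-218 5p, from introns of the Slit genes, had 0.54 and 0.57. Mir-210_3p, induced by hypoxia, had 0.54 and 0.94, and without exercised-lineage mouse 1 its values were 0.59 and 0.88. Mir-199-P1-v1_5p*, from a mesenchymal family, had 0.52 and 0.77. Without exercised-lineage mouse 1 only 2 of these 6 arms, Mir-126 3p and Mir-210_3p, kept a place among the first 6, and the Mir-199 3p arm ranked first.

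The least like arms by the same rule were Mir-154-P13_3p of the Dlk1-Dio3 cluster, Mir-34-P2a_5p of ciliated cells and Mir-448_3p, from the serotonin receptor gene Htr2c. Their r with Mir-143_3p was -0.68, -0.72 and -0.76, and with Mir-145_5p -0.70, -0.59 and -0.58. Mir-448_3p had 337 to 2464 normalized counts with a median of 564 in the exercised lineage, against 291 to 2190 with a median of 1045 in the sedentary lineage. Without exercised-lineage mouse 2, 0 of these 3 arms stayed among the 3 least like.

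**Figure D4:**
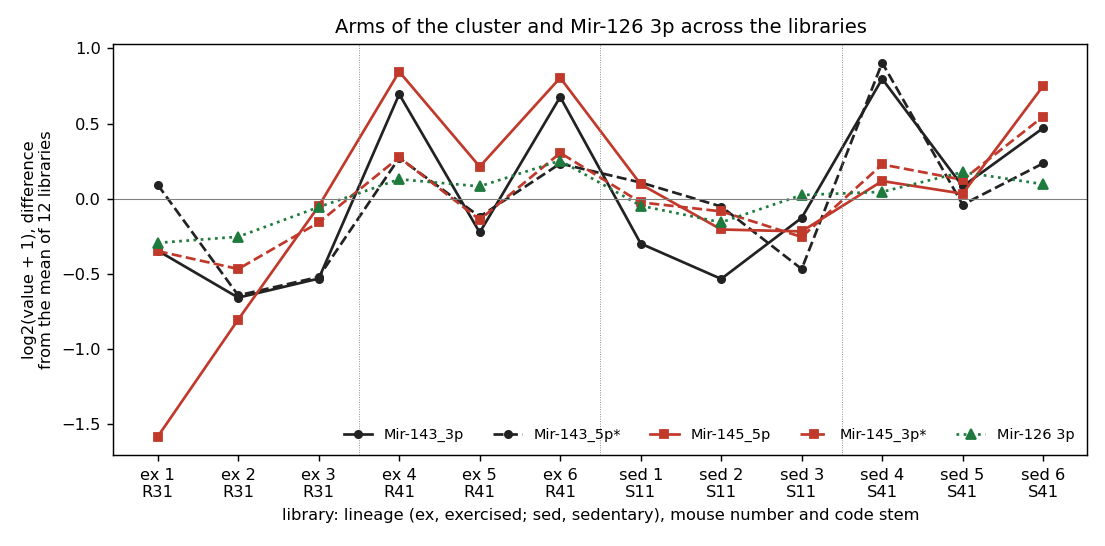
Log2(value + 1) of the 4 member arms and of Mir-126 3p as the difference from the mean of the 12 libraries (vertical axis, log2 units), by library with its mouse number and code stem (horizontal axis), exercised lineage left. Mir-143_3p is above its mean in mice 4 and 6 of both lineages, and Mir-126 3p moves less than the cluster.

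Markers of other cell types were set beside the cluster with 8 lists. For each list the most abundant arm is named, and other arms named here were picked after their values were seen. Of 10 arms of the choroid plexus, the epithelium of the brain ventricles, and of ependyma, 10 had a negative r with Mir-143_3p and 10 with Mir-145_5p (medians -0.61 and -0.53). Both counts were also 10 of 10 under scaling by totals and by the upper quartile. These are both arms of Mir-1298, Mir-204, Mir-34-P2a, Mir-34-P2b and Mir-448, so the 10 are not separate comparisons. Over all 470 other arms, 56.0% had a positive r with Mir-143_3p and 48.5% with Mir-145_5p. The summed level of that list ran from 47628 to 203016 normalized counts across exercised-lineage mice and from 45985 to 199458 across sedentary-lineage mice. Its most abundant arm, Mir-1298_5p, ran from 14859 to 124745 in exercised-lineage and from 12623 to 124316 in sedentary-lineage mice. Its Mir-1264 has no row, and 1 of its arms was listed at 0 in a library. Its part in the values of the cluster was not tested.

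The list of mural and mesenchymal arms outside the cluster had 9 of 9 arms with a positive r to Mir-143_3p (median 0.20) and 8 of 9 to Mir-145_5p (median 0.61), and 7 of 9 to each under scaling by totals. The summed level of the list, most of it the Mir-140 3p arm, did not follow the cluster in the same way in both lineages. Its r with Mir-143_3p was 0.83 among exercised-lineage and -0.91 among sedentary-lineage mice, and with Mir-145_5p 0.98 among exercised-lineage and -0.75 among sedentary-lineage mice (n = 6 each). The difference was not tested. In it the Mir-199 3p arm had r = 0.70 with Mir-143_3p, and the cartilage-linked Mir-140 3p arm 0.49, while Mir-214_3p, of the same transcript as a Mir-199 gene, had 0.08. The list's summed level ran from 15942 to 23127 normalized counts across exercised-lineage mice and from 19457 to 21421 across sedentary-lineage mice. Its lineage differences were below 0 for 7 of 9 arms (median -0.31, against -0.00 over all arms), with 0 of 9 called. The endothelial list was divided, with 2 of 4 arms positive to Mir-143_3p and 2 of 4 to Mir-145_5p. The Mir-126 3p arm was positive to both, and the Mir-126 5p arm had 0.30 with Mir-143_3p and -0.18 with Mir-145_5p. The passenger arm Mir-139_3p* had r = -0.52 with Mir-143_3p and Mir-139_5p -0.00.

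Muscle arms were mixed. Of 10 arms listed for the smooth muscle phenotype, 8 had a positive r with Mir-143_3p (median 0.23) and 7 with Mir-145_5p (median 0.45). Mir-21_5p, the most abundant, had 0.27 with Mir-143_3p and 0.74 with Mir-145_5p. Of the 4 striated muscle arms, all also on that list of 10, 3 were positive to Mir-143_3p (median 0.32) and 2 to Mir-145_5p (median 0.15). With Mir-143_3p, r was 0.51 for Mir-1 3p and 0.60 for Mir-133 3p, the heart and skeletal muscle pair, and -0.18 for Mir-499_5p. The summed level of these 4 was 3096 to 5790 normalized counts in exercised-lineage and 3252 to 7682 in sedentary-lineage mice. Blood markers had a median r to Mir-143_3p of 0.23 for 5 erythroid arms and 0.10 for 8 leukocyte and microglia arms, and to Mir-145_5p of -0.10 and 0.02. Positive to Mir-143_3p were 4 of 5 and 5 of 8 of them, and to Mir-145_5p 1 of 5 and 4 of 8. Mir-486_5p of red cells had 0.23 with Mir-143_3p and 0.62 with Mir-145_5p. The 13 neuronal arms had a median of -0.03 with Mir-143_3p and -0.06 with Mir-145_5p, 6 positive to each. The most abundant of them, Mir-9 5p, had 0.23 with Mir-143_3p and 0.80 with Mir-145_5p. The summed level of the list, most of it Mir-9 5p, had 0.23 and 0.74 (rho 0.22 and 0.48). Without the 2 libraries farthest from its median, the sum had r = -0.18 with Mir-143_3p and 0.18 with Mir-145_5p. Within the lineages, r of the sum with Mir-145_5p was 0.87 among exercised-lineage and 0.06 among sedentary-lineage mice. None of the arms of these lists was called between the lineages, as for the table as a whole.

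**Figure D5:**
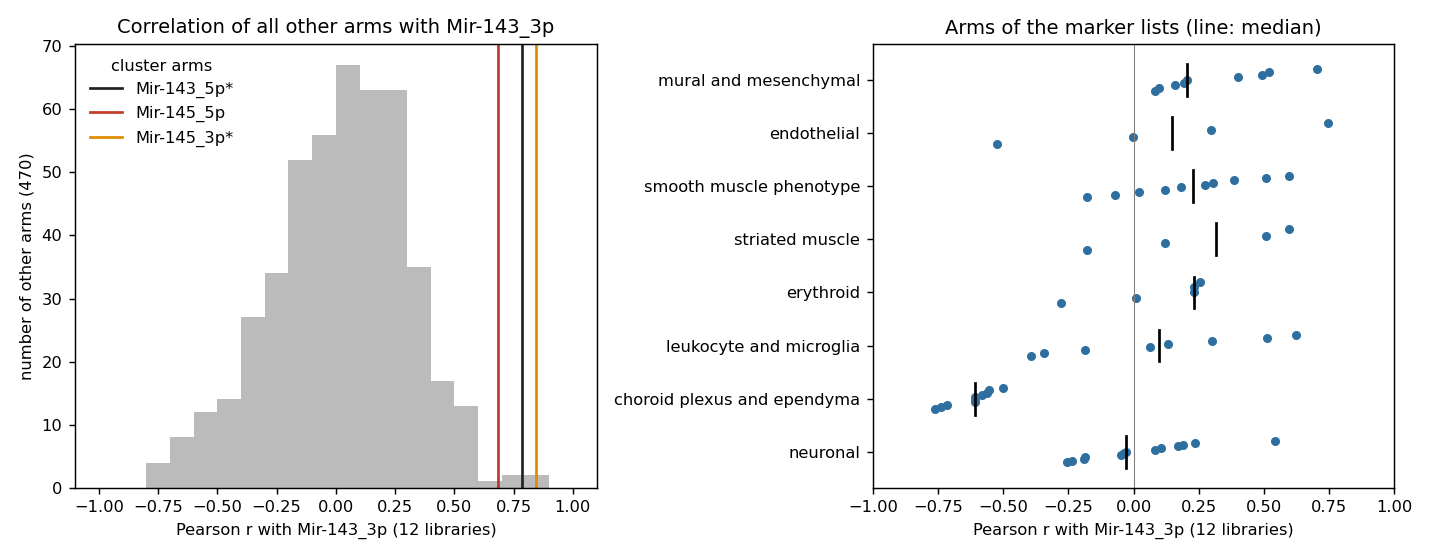
Left, the number of other tested arms (470) by Pearson r with Mir-143_3p over 12 libraries, in bins of equal width, with vertical lines at the 3 other members. Right, r with Mir-143_3p for each arm of 8 marker lists, with a line at each list's median. The members lie at 0.68, 0.79 and 0.84, and all choroid plexus and ependyma arms lie below 0.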

How the data were processed

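The authors deposited 1 table with 1 column per library and 1 row per mature miRNA arm (MirGeneDB names). Its deposited values are a signal, reads per arm divided by 1 size factor per library, although the column names call them raw. Per the submitters' processing notes, Bowtie 1.3.0, mm10 and DESeq2 were used. RNA came from a Qiagen miRNA kit and libraries from an NEB small RNA kit, per the labels. No molecular identifiers are named, so counting error does not cover PCR copies. The sources used here do not give adapter trimming, mismatches, multi-mapping or row filters. All values were whole multiples, within 0.01, of 1 step per library, which gave the reads (6862623 to 10219856). The smallest values stood for 2 to 6 reads, the step could not be read from them directly, and no count model was fitted.

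All 474 arms with a mean of at least 10 were tested with limma 3.58.1 in R 4.3.3 (trended empirical Bayes) on log2(value + 1), 6 against 6 libraries, with Benjamini-Hochberg adjustment. A fold on this scale understates differences of low arms. The code was checked on simulated libraries. Ratios were compared by exact permutation over all 924 assignments, two-sided. Correlations used scipy 1.17.1. The members, lists and tests were chosen with earlier results of these data known. Named are all member rows, the 6 arms most like and the 3 least like the cluster, and the most abundant arm of each list. Values of 0 occurred in 35 tested arms, none of them a member. Coordinates are from GENCODE, sequences from RefSeq, each matched by name.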

Additional observations from a re-analysis of the deposited data

Results flagged for a closer look

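Among 46 groups of 6 libraries (23 quantities, each in both lineages), 4 had a library farther from the others than Dixon's critical value for a group of this size allows, and chance alone flags about 1 in 20 groups. Mir-145_5p stood at 2192 normalized counts in sedentary-lineage mouse 6, with the next library at 1413. The ratio of Mir-143_3p to Mir-145_5p was 642 in exercised-lineage mouse 1, with the next at 301, and 435 in sedentary-lineage mouse 4, with the next at 289. Mir-1 3p, the muscle arm, stood at 7282 normalized counts in sedentary-lineage mouse 5, with the next at 4296. Causes were not tested.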

How the results depend on the processing

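The number of arms called between the lineages was 0 in all 25 alternatives, with 16 to 57 at an unadjusted p below 0.05 (16 without the S11 libraries and with the replicate block, 57 under upper-quartile scaling). The lineage differences of Mir-143_3p, Mir-143_5p*, Mir-145_5p and Mir-145_3p* turned positive without the R31 libraries (0.32, 0.014, 0.53 and 0.057) and without the S41 libraries (0.26, 0.023, 0.013 and 0.032). With 1 library left out they ran from -0.28 to 0.017, -0.35 to -0.07, -0.38 to 0.11 and -0.26 to -0.09. The cause was not tested. Scaling by totals moved all differences by a median of 0.09, and Mir-143_3p to -0.04. The highest over the lowest value ran, with 1 library left out, from 2.52 to 2.74, 1.90 to 2.95, 3.14 to 5.39 and 1.71 to 2.02 for the same arms.

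The correlation of Mir-143_3p with Mir-145_5p ran from 0.62 to 0.79 with 1 library left out. It was 0.57 under scaling by totals (permutation p = 0.0467, unadjusted). The p adjusted over the member pairs was not computed under that scaling. Whether the pair met the threshold there was therefore not tested. The correlation missed the threshold without the R41 libraries (0.55) and as deviation from stem means (0.21, an alternative chosen after seeing the data). Scaling by totals also moved the likeness of Mir-126 3p to 0.34, Mir-150_5p to 0.37, Mir-29-P2a_3p to 0.16, Mir-218 5p to 0.084 and Mir-154-P13_3p to -0.37. Mir-199-P1-v1_5p* and Mir-210_3p, both at 0.44, then ranked above Mir-126 3p. The arms of Mir-145 had r = 0.61 and Mir-143_5p* with Mir-145_5p 0.18 under that scaling, against 0.83 and 0.37 in the values as deposited. The separation of R41 and R31 libraries was lost for Mir-143_3p, Mir-145_3p* and Mir-126 3p under scaling by totals, and for Mir-143_3p under upper-quartile scaling.

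The lineage differences in log2 ratio, between -0.01 and 0.10 over all libraries, changed sign in several fits chosen after seeing the data. Mir-143_3p over Mir-143_5p* was 0.30 without R31, -0.10 without R41 and -0.029 without S11 libraries. Mir-145_5p over Mir-145_3p* was 0.47 without R31 and -0.49 without R41 libraries, and ran from -0.13 to 0.23 with 1 library left out. Mir-143_3p over Mir-145_5p was -0.21 without R31, 0.33 without R41 and -0.12 without S11 libraries, and ran from -0.18 to 0.20. Mir-143_3p over Mir-145_3p* was -0.16 without R41 and -0.12 without S11 libraries, and ran from -0.035 to 0.17.

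The mouse numbers did not pair the libraries (r of same-numbered deviations from -0.17 to 0.15, 1 of 6 above 0.1, 2 of 12 libraries closest to their own number). With the number as a replicate block, 0 arms were called (16 at an unadjusted p below 0.05), and Mir-143_3p stayed at -0.13. The planned count models were not run, since the deposited values are not whole and the step that turns them into reads was inferred, with no value that stands for 1 read. The number of libraries, more than depth, limits these values. Counting error was largest for Mir-143_5p*, at 9.70% against a coefficient of variation of 31.5% (63 to 224 reads).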
